A study of Homo sapiens with 21 samples.

Results

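Kinesins are motor proteins that use ATP to walk along microtubules or to take them apart. The genes described here were the rows of the expression table whose symbol was KIF followed by a digit and whose value varied between libraries. Of the 23368 genes listed, 39 had such a symbol. KIF19, KIF26A and KIF2B were listed at 0 in every library, which left 36 kinesins. They were sorted by textbook role into 12 mitotic kinesins, 15 transport kinesins and 9 other kinesins. The main contrast was between the mitotic and the transport kinesins.

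RNA was sequenced from hTERT-HPNE, a nontransformed human pancreatic cell line immortalized with telomerase, to follow the response to 2 kinds of stress. The 21 libraries formed 7 groups of 3 biological replicates. Untreated cells were harvested at 0 h. Cells in 3 groups were harvested 4, 8 or 24 h after 400 ng/ml neocarzinostatin (NCS), a drug that breaks both DNA strands, and cells in the other 3 groups 4, 8 or 24 h after 300 μM hydrogen peroxide (H2O2), which causes oxidative stress. Every group came from the same line, grown with EGF and puromycin and given fresh medium at treatment. No untreated library from 4, 8 or 24 h was analysed here, so treatment and time after the change of medium cannot be told apart in comparisons with untreated cells. Nestin (NES), a marker of these cells, had a mean rLog value of 12.1 in untreated cells, and the mesenchymal filament vimentin (VIM) 17.1. The duct keratin KRT19 was at 0.60 and KRT7 at 6.74, while the acinar gene PRSS1 and the islet gene INS were listed at 0 or absent. The epithelial marker EPCAM was at -1.76, the leukocyte marker PTPRC at 0.94 and the endothelial marker PECAM1 at 2.04. Some of these markers moved with treatment. Among treated groups, NES was lowest at 24 h after H2O2 (11.83) and highest at 4 h after NCS (12.25). VIM was at 17.22 at 4 h and 16.79 at 24 h after H2O2. KRT7 was highest at 24 h after H2O2 (7.05), and PECAM1 at 4 h after H2O2 (2.37).

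Values are the authors' rLog values, which are log2 counts adjusted for library size and shrunken towards each gene's mean, most strongly for genes with few reads. A difference of 1 is therefore a 2-fold change on this scale, and differences of low genes are understated. Without counts in the table, depth is unknown for every library. Library medians lay between 7.14 and 7.19. Groups were compared with limma in 1 fit of all 7 groups, and p-values were adjusted by the Benjamini-Hochberg method over the 19694 genes that varied. A gene was called when the difference between its group means exceeded 1 (log2) and its adjusted p was under 0.05. The 6 comparisons with untreated cells share the 3 untreated libraries. For a single gene, an exact permutation test of 3 libraries against 3 cannot give a two-sided p below 0.1. Among the libraries, replicate 2 of H2O2 at 8 h stood apart. Its distance to the mean of its group's other libraries was 13.8 over all varying genes, against 7.84 to 11.2 in each of the others, and its median mitotic kinesin was 0.35 above theirs.

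In a dividing cell, mitotic kinesins build the bipolar spindle, align and segregate chromosomes and assemble the midzone at which the cell is cut apart. Most are made in G2 and mitosis, and many of their genes are repressed through p53, p21 and the DREAM complex once DNA damage stops the cell cycle. Transport kinesins carry vesicles, mitochondria, endosomes and ciliary cargo in cells of every cycle stage, and some are largely neuronal.

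The mitotic and transport kinesins moved apart after both treatments. At 24 h, 11 of the 12 mitotic kinesins were called lower in H2O2-treated cells, where 1.29% of all genes were called lower, and 11 in NCS-treated cells, where the share was 1.37%. The numbers called lower at 4 and 8 h were 1 and 4 after H2O2, against 0.0406% and 0.198% of all genes. After NCS they were 2 and 6, against 0.127% and 0.274%. KIF4B, a low gene, was the member not called at 24 h in either treatment. The median mitotic kinesin differed from untreated cells by -0.50, -0.94 and -1.75 at 4, 8 and 24 h after H2O2 and by -0.79, -0.995 and -1.99 after NCS, while the medians of all genes lay between -0.0003 and 0.0038. No transport kinesin was called in any treated group, and no kinesin of either list was called higher, where 0.655%, 0.32% and 0.325% of all genes were after H2O2 and 0.0914%, 0.066% and 0.127% after NCS. With a limit of 0.58 in place of 1, the mitotic kinesins called lower numbered 5, 11 and 11 after H2O2, against 0.66%, 1.06% and 2.97% of all genes, and 10, 11 and 11 after NCS, against 0.543%, 0.848% and 3.02%. The median transport differences were -0.068, 0.0023 and -0.0016 after H2O2 and 0.0079, 0.045 and 0.080 after NCS, or -0.20 and -0.11 at 4 and 8 h after H2O2 over the 11 with a mean value of at least 5. The signs of the 8 and 24 h medians after H2O2 and the 4 h median after NCS changed under at least 1 alternative setting or left-out library. The difference of every transport kinesin lay between -0.36 and 0.49. In bulk RNA, a different share of cells in each cell cycle stage and a different amount of mitotic kinesin RNA per cell cannot be told apart, and measurements of cell cycle stage were not used here.

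**Figure D1:**
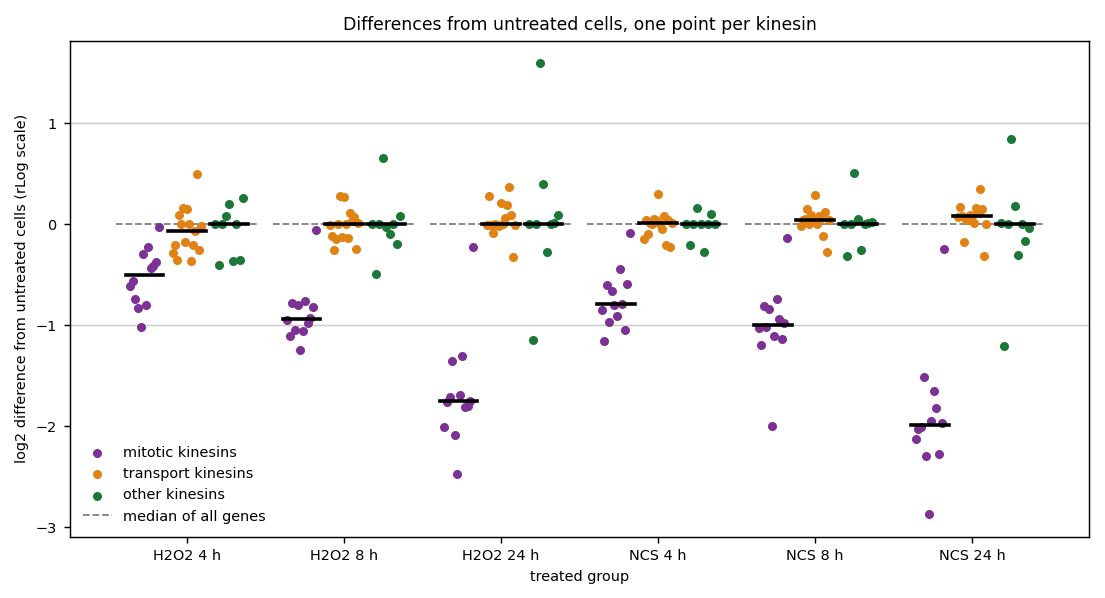
Each point is 1 kinesin, placed by its difference from untreated cells (log2, rLog scale) in 1 of the 6 treated groups, with black bars at the median of each list and a dashed line at the median of all genes. The mitotic kinesins sink to medians of -1.75 and -1.99 at 24 h, while the transport kinesins stay between -0.36 and 0.49.

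By the adjusted p alone, 11 mitotic kinesins were lower at 4 and at 8 h and 12 at 24 h after either treatment, and none was higher. The share of all genes lower by this rule was 19.7%, 18.6% and 19.9% after H2O2 and 9.72%, 13.3% and 18.4% after NCS. The share lower was larger among the 11681 genes with a mean value of at least 5. Of these, 3792, 3551 and 3717 were lower after H2O2 and 1861, 2554 and 3463 after NCS. Those higher numbered 2620, 2984 and 3534 after H2O2 and 1395, 1945 and 3542 after NCS. The share higher was also larger than among all genes, except at 4 h after H2O2, where it was smaller. As many mitotic kinesins, 11 at 4 and at 8 h and 12 at 24 h, had treated libraries that lay wholly below the untreated ones. The background was 22.3%, 20.4% and 35.7% of genes after H2O2 and 16.3%, 17.8% and 21.5% after NCS. This background also counts genes at the floor of the table. KIF6, for example, lay between -2.0403 and -2.0396 at 24 h after H2O2 and between -2.0390 and -2.0386 in untreated cells. Among the transport kinesins, 7, 4 and 1 were lower by the adjusted p alone after H2O2 and 3, 3 and 4 were higher, against 26.2%, 18.8% and 20.2% of all genes higher. After NCS, 3, 2 and 2 were lower and 2, 2 and 8 higher, against 7.47%, 10.5% and 19.6% higher. These small counts moved when 1 library was left out. The 8 higher at 24 h after NCS, of which 6 had a mean value of at least 5, became 4 without NCS 24 h replicate 2. At 4 h after NCS, 1 in place of 2 was higher without untreated replicate 2 or NCS replicate 2. At 8 h after NCS, 1 in place of 2 was lower without untreated replicate 1 or 3 or NCS replicate 1 or 3, and 4 in place of 2 were higher without untreated replicate 3. At 24 h after NCS, 1 in place of 2 was lower without untreated replicate 3 or NCS replicate 3. With an unadjusted p under 0.05, the transport kinesins lower numbered 7, 6 and 1 after H2O2, against 21.8%, 21.4% and 21.9% of all genes, and 3, 2 and 2 after NCS, against 14.5%, 17.2% and 20.8%. Those higher numbered 3, 3 and 4 after H2O2, against 29.6%, 22.3% and 22.9%, and 2, 5 and 8 after NCS, against 12.1%, 15% and 22.9%. In 14 kinesins the adjusted p was under 0.05 for a lower value in each of the 6 treated groups, namely the 11 mitotic kinesins other than KIF4B, KIF5B of the transport kinesins, and KIF24 and KIF2A of the other kinesins. At 4 h after NCS, KIF24 did not pass without untreated replicate 3 (-0.17) or NCS replicate 2 or 3 (-0.20).

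The treatments themselves were visible in their usual reporter genes. HMOX1, the heme oxygenase induced by oxidants, rose by 3.44 (SE 0.05, adjusted p = 3.69e-18) at 4 h after H2O2 and by 0.88 after NCS. The p53 target CDKN1A, which encodes p21, rose by 1.21, 1.62 and 1.57 at 4, 8 and 24 h after H2O2 and by 1.58, 1.47 and 1.48 after NCS. MDM2, another p53 target, rose by 0.79, 1.385 and 1.23 at 4, 8 and 24 h after H2O2. After NCS it rose by 1.55, 1.13 and 0.99.

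Promoters of the mitotic kinesins are shown because the genes moved together. They were taken from RefSeq on GRCh38.p14, matched by symbol, whereas the submitters' processing notes name hg19 for the reads. A window of 300 bases, 250 before the annotated start and 50 from the start on, was found for 12 of 12 mitotic, 12 of 15 transport and 7 of 9 other kinesins, and for 27305 genes in all. Some genes had several windows, and a gene was counted once when any of its windows held the motif. Both strands were searched for TTTGAA, for its variant TTCGAA and for the further variant TTTAAA, which are forms of the cell cycle genes homology region (CHR) bound by the DREAM and MYB-MuvB complexes, and for CCAAT, the box bound by NF-Y. Both variants read the same on the 2 strands, and none of the 4 contains another. TTTGAA was found in 9 of 12 mitotic kinesins (75%) and 1 of 12 transport kinesins (8.33%), and in 18.2% of all genes. Between 100 bases before the start and 10 from it on, the numbers were 8 of 12, 0 of 12 and 6.47% of all genes. At least 1 of the 3 CHR forms was found in 12 of 12 mitotic, 2 of 12 transport and 1 of 7 other kinesins, and in 29% of all genes, and within the shorter stretch in 11 of 12 mitotic kinesins and 11.5% of all genes. CCAAT was found in 10 of 12, 4 of 12 and 3 of 7 kinesins, and in 39.7% of all genes. A match here is a match of letters.

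The printed stretches run from 100 bases before to 10 bases from the start on, 5′ to 3′ on the gene's strand, with the CHR forms and CCAAT in capitals on either strand (TTCAAA and ATTGG are the reverse complements of TTTGAA and CCAAT). The first 12 are those of all 12 mitotic kinesins, with the first of 2 windows for KIF22, KIF24 is the kinesin outside that list that was called lower, and KIF3A and KIF5B are transport kinesins shown for contrast.
KIF11 (chr10:92593030-92593139, plus strand): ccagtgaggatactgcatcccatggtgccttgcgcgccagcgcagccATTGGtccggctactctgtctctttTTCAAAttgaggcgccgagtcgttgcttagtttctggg
KIF15 (chr3:44761694-44761803, plus strand): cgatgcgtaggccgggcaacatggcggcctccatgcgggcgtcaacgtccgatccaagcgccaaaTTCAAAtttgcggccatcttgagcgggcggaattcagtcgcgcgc
KIF4A (chrX:70290004-70290113, plus strand): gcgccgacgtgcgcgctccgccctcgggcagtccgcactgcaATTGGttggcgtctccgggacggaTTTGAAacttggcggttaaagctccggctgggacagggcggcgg
KIF22 (chr16:29790651-29790760, plus strand): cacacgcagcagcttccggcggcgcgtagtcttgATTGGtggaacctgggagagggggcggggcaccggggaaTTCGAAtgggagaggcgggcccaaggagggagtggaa
KIF18A (chr11:28108147-28108256, minus strand): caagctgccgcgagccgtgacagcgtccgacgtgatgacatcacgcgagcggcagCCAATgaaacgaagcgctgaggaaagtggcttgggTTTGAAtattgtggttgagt
KIF18B (chr17:44947764-44947873, minus strand): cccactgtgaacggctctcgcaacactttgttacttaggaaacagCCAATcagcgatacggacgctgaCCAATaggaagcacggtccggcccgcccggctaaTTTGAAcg
KIF14 (chr1:200620742-200620851, minus strand): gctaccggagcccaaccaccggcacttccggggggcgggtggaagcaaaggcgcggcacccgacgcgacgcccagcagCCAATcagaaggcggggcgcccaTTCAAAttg
KIF20A (chr5:138179012-138179121, plus strand): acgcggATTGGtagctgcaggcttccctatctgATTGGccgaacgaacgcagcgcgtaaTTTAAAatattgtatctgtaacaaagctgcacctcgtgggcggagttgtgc
KIF23 (chr15:69414249-69414358, plus strand): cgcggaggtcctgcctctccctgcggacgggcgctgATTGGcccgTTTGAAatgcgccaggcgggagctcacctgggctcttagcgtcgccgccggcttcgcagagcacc
KIF20B (chr10:89701490-89701599, plus strand): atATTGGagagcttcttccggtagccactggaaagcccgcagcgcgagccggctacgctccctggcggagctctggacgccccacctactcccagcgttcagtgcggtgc
KIF2C (chr1:44739737-44739846, plus strand): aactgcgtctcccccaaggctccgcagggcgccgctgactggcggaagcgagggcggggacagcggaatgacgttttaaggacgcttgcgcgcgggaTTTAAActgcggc
KIF4B (chr5:155013655-155013764, plus strand): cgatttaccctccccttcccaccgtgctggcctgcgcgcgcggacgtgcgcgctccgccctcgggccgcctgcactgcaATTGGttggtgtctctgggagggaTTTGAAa
KIF24 (chr9:34329259-34329368, minus strand): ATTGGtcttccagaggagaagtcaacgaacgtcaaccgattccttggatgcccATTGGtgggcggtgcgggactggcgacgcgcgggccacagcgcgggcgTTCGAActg
KIF3A (chr5:132737537-132737646, minus strand): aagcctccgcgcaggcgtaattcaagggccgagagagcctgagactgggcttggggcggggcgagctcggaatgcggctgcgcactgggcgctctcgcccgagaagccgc
KIF5B (chr10:32056416-32056525, minus strand): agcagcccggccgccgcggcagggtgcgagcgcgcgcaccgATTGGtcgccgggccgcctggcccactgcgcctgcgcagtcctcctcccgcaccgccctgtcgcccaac

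In KIF11, KIF15 and KIF4A, TTTGAA began 28, 35 and 34 bases before the start, and in KIF23 it began 55 bases before. KIF20A had TTTAAA 41 bases before the start and CCAAT at 94 and 67 bases. KIF22 had TTCGAA 27 bases before the start. KIF20B had no CHR form in the stretch shown, its TTTGAA lying at bases 25 and 31, counting the start as 1. KIF2C had TTTAAA 3 bases before the start, and neither it nor KIF15 had CCAAT. KIF24 had TTCGAA at base 2. KIF3A had none of the 4 motifs in its window. KIF5B had TTTGAA 140 bases before its start, outside the stretch shown, and CCAAT at 59.

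KIF11 (Eg5) pushes antiparallel microtubules apart and keeps the spindle bipolar, and KIF15 supports it on bundled microtubules. KIF11 measured 11.13, 11.09 and 11.15 in the 3 untreated libraries. After H2O2 it measured 10.52, 10.59 and 10.45 (4 h), 10.03, 10.41 and 10.10 (8 h) and 9.19, 9.04 and 9.15 (24 h). After NCS it measured 10.27, 10.26 and 10.30 (4 h), 10.09, 10.05 and 10.15 (8 h) and 8.93, 9.08 and 9.01 (24 h). No treated library reached an untreated one, and the libraries of each time after NCS lay below those of the time before, though the step from 4 to 8 h (-0.18) did not pass the adjusted p. The difference from untreated cells at 24 h was -2.001 (SE 0.07, adjusted p = 4.98e-14) after H2O2 and -2.12 (SE 0.07, adjusted p = 2.34e-14) after NCS. KIF15 measured 9.04, 9.07 and 9.06 in untreated cells. In H2O2-treated cells the libraries gave 8.37, 8.39 and 8.20 (4 h), 8.16, 8.44 and 8.22 (8 h) and 7.46, 7.32 and 7.28 (24 h). In NCS-treated cells they gave 8.42, 8.51 and 8.43 (4 h), 8.25, 8.16 and 8.34 (8 h) and 6.995, 7.02 and 7.13 (24 h). KIF15 was thus lower already at 4 h after H2O2, with a difference of -0.74 (SE 0.07, adjusted p = 8.39e-08), and its 4 and 8 h libraries in that treatment overlapped. At 24 h it was lower, with differences of -1.71 (SE 0.07, adjusted p = 3.83e-13) after H2O2 and -2.01 (SE 0.07, adjusted p = 4.33e-14) after NCS.

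KIF4A and KIF22 (Kid) are chromokinesins, which ride on chromosome arms, and KIF4A also works with PRC1 at the spindle midzone. KIF4A gave 10.81, 10.88 and 10.87 in untreated libraries. With H2O2 the values were 10.42, 10.57 and 10.46 (4 h), 9.96, 10.17 and 9.96 (8 h) and 9.11, 9.13 and 9.08 (24 h). With NCS they were 10.28, 10.28 and 10.22 (4 h), 9.82, 9.86 and 9.95 (8 h) and 8.80, 8.89 and 8.97 (24 h). Its 24 h groups were the lowest, at -1.74 (SE 0.05, adjusted p = 1.22e-14) and -1.97 (SE 0.05, adjusted p = 2.21e-15) from untreated cells after H2O2 and NCS. KIF22, which pushes chromosome arms away from the poles, gave 10.63, 10.64 and 10.74 without treatment. With H2O2 its values were 10.46, 10.52 and 10.37 (4 h), 9.80, 10.06 and 9.89 (8 h) and 9.44, 9.35 and 9.32 (24 h). With NCS its values were 10.21, 10.30 and 10.19 (4 h), 9.91, 9.91 and 9.96 (8 h) and 8.95, 9.10 and 9.01 (24 h). At 4 h after H2O2 it had moved by -0.22 (SE 0.06, adjusted p = 0.00372), the smallest change among the 11 mitotic kinesins with a mean value of at least 5. KIF4B, an intronless near-copy of KIF4A with which it may share reads, lay between 3.28 and 3.67 in all libraries. It differed by -0.23 (SE 0.07, adjusted p = 0.0105) at 24 h after H2O2 and -0.25 (SE 0.07, adjusted p = 0.00605) after NCS. The adjusted p after H2O2 was no longer under 0.05 without untreated replicate 3 (-0.18) or H2O2 24 h replicate 2 (-0.19).

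KIF18A, KIF18B and KIF2C act on microtubule ends. KIF18A, which damps chromosome movements at the metaphase plate, measured 9.27, 9.18 and 9.32 in untreated cells. After H2O2 the values were 8.39, 8.52 and 8.38 (4 h), 7.99, 8.62 and 8.03 (8 h) and 7.97, 7.84 and 7.89 (24 h). After NCS they were 8.35, 8.23 and 8.29 (4 h), 8.23, 8.21 and 8.29 (8 h) and 7.71, 7.77 and 7.74 (24 h). Replicate 2 at 8 h after H2O2 was above every H2O2 library of 4 h, and the other 8 h libraries were below them. KIF18A differed by -1.36 (SE 0.11, adjusted p = 5.09e-09) and -1.52 (SE 0.11, adjusted p = 1.2e-09) at 24 h. KIF18B, which controls the length of astral microtubules, started from 9.85, 9.93 and 9.94. H2O2-treated libraries gave 8.92, 8.96 and 8.78 (4 h), 8.96, 9.28 and 9.10 (8 h) and 8.04, 7.82 and 7.59 (24 h). NCS-treated libraries gave 9.25, 9.26 and 9.23 (4 h), 9.01, 9.06 and 9.12 (8 h) and 7.55, 7.59 and 7.69 (24 h). At 4 h after H2O2 KIF18B was the one mitotic kinesin called, at -1.02 (SE 0.09, adjusted p = 2.65e-08), and it was not called without H2O2 4 h replicate 3 (-0.97) or after quantile normalization (-0.96). From 4 to 8 h it differed by 0.22 (SE 0.09, adjusted p = 0.0435) with overlapping libraries. That value did not pass the adjusted p after quantile normalization (0.18), in a fit of only the groups compared, or when single libraries were left out, being 0.14 without replicate 2 of H2O2 at 8 h and 0.17 without replicate 3 at 4 h. At 24 h KIF18B was lower, with differences of -2.09 (SE 0.09, adjusted p = 6.07e-13) after H2O2 and -2.298 (SE 0.09, adjusted p = 1.58e-13) after NCS.

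KIF2C (MCAK) takes microtubules apart at centromeres and so corrects faulty attachments. Untreated cells gave 11.08, 11.09 and 11.20. Its values after H2O2 were 10.69, 10.78 and 10.66 (4 h), 10.04, 10.44 and 10.12 (8 h) and 9.39, 9.29 and 9.31 (24 h). Its values after NCS were 10.11, 10.06 and 10.06 (4 h), 9.86, 10.06 and 10.07 (8 h) and 8.76, 8.91 and 8.90 (24 h). KIF2C was called at 4 h after NCS, with -1.05 (SE 0.08, adjusted p = 2.22e-08), but changed by -0.42 at that time after H2O2. Its difference at 24 h was -1.80 (SE 0.08, adjusted p = 1.16e-12) after H2O2 and -2.27 (SE 0.08, adjusted p = 4.56e-14) after NCS.

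The last 4 mitotic kinesins work at the midzone and in cytokinesis. KIF20A (MKLP2) carries the chromosomal passenger complex to the midzone. It measured 11.32, 11.43 and 11.40 in untreated cells. Libraries after H2O2 measured 11.10, 11.06 and 11.10 (4 h), 9.97, 10.45 and 10.00 (8 h) and 9.04, 8.88 and 8.82 (24 h). Libraries after NCS measured 10.59, 10.61 and 10.57 (4 h), 9.31, 9.40 and 9.45 (8 h) and 8.53, 8.44 and 8.58 (24 h). KIF20A moved further than any other of the 36 kinesins, reaching -2.47 (SE 0.09, adjusted p = 6.76e-14) at 24 h after H2O2 and -2.87 (SE 0.09, adjusted p = 9.62e-15) after NCS. At 8 h after NCS it had already changed by -1.999 (SE 0.09, adjusted p = 1.91e-11), and its libraries of 4, 8 and 24 h did not overlap in either treatment.

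KIF23 (MKLP1) forms centralspindlin with RACGAP1 and bundles midzone microtubules. It gave 11.96, 11.95 and 12.001 without treatment. In H2O2 it gave 11.53, 11.57 and 11.52 (4 h), 10.89, 11.22 and 10.88 (8 h) and 10.21, 10.07 and 10.20 (24 h). In NCS it gave 11.18, 11.20 and 11.16 (4 h), 11.03, 11.06 and 11.02 (8 h) and 10.11, 10.16 and 10.19 (24 h). The 24 h differences of KIF23 were nearly equal, -1.81 (SE 0.06, adjusted p = 3.66e-14) after H2O2 and -1.81 (SE 0.06, adjusted p = 3.46e-14) after NCS. KIF14, which binds PRC1 and citron kinase at the midbody, had 10.08, 10.10 and 10.11 in untreated cells. Values after H2O2 were 9.53, 9.64 and 9.42 (4 h), 8.78, 9.30 and 8.89 (8 h) and 8.37, 8.28 and 8.36 (24 h). Values after NCS were 8.92, 8.91 and 8.99 (4 h), 8.84, 8.92 and 8.93 (8 h) and 8.01, 8.07 and 8.11 (24 h). KIF14 was called at 4 h after NCS, with -1.16 (SE 0.09, adjusted p = 2.2e-08), and its libraries of 4 and 8 h after NCS overlapped. At 24 h it was lower, with differences of -1.76 (SE 0.09, adjusted p = 5.73e-12) after H2O2 and -2.03 (SE 0.09, adjusted p = 7.75e-13) after NCS. KIF20B (MPP1), needed late in cytokinesis, had 10.43, 10.48 and 10.44 in untreated libraries. H2O2 gave 9.64, 9.68 and 9.63 (4 h), 9.24, 9.71 and 9.23 (8 h) and 8.82, 8.73 and 8.73 (24 h). NCS gave 9.44, 9.56 and 9.61 (4 h), 9.34, 9.40 and 9.29 (8 h) and 8.39, 8.69 and 8.41 (24 h). KIF20B was lower, with differences of -1.69 (SE 0.10, adjusted p = 4.48e-11) and -1.95 (SE 0.10, adjusted p = 5.74e-12) at 24 h.

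**Figure D2:**
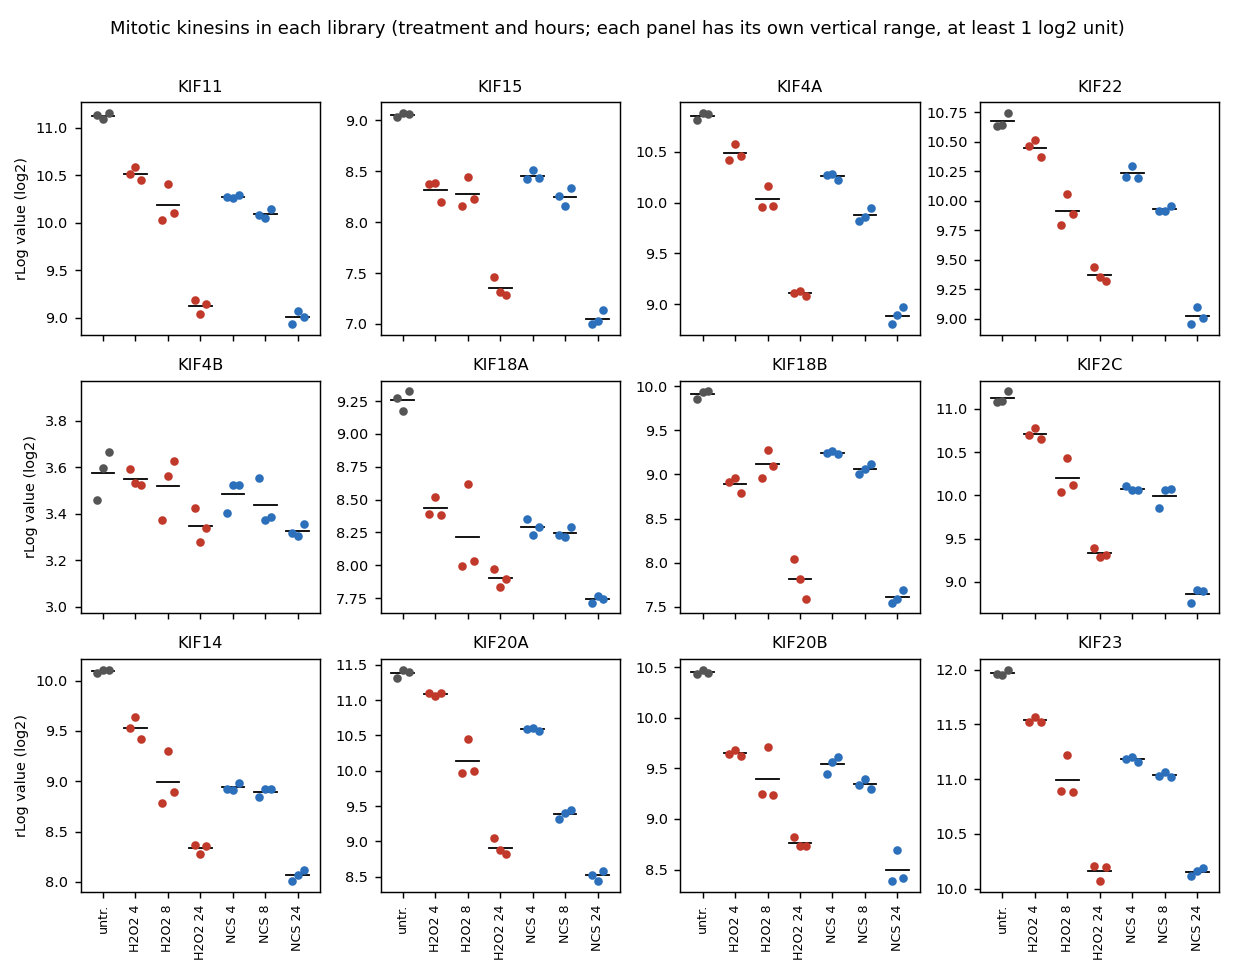
Each panel plots 1 of the 12 mitotic kinesins (rLog value, log2) in the 21 libraries, with the treatment and the hours on the horizontal axis, bars at group means, grey for untreated cells, red for H2O2 and blue for NCS. In every panel but that of KIF4B, whose values stay between 3.28 and 3.67, the 24 h libraries lie below the untreated ones by more than 1, and replicate 2 of H2O2 at 8 h lies above its partners.

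At 8 h after H2O2 the called kinesins were KIF14, KIF18A, KIF20A and KIF20B, and the count rested on single libraries. Without replicate 2 of that group 7 were called, with KIF11 (-1.06), KIF23 (-1.08) and KIF2C (-1.05) added, and the median mitotic kinesin was -1.06 instead of -0.94. Without replicate 1 or replicate 3, 2 were called. At 8 h after NCS the called kinesins were KIF11 (-1.03), KIF14 (-1.199), KIF18A (-1.01), KIF20A (-1.999), KIF20B (-1.10) and KIF2C (-1.13). KIF18A was not called in that comparison without untreated replicate 3 (-0.98) or NCS 8 h replicate 2 (-0.998), or after quantile normalization (-0.99).

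The mitotic kinesins differed in how much of the 24 h change had been reached early. On the log2 scale, the median of the 11 kinesins other than KIF4B was 30.4% of the 24 h difference at 4 h and 51.8% at 8 h after H2O2, and 40.2% and 49.8% after NCS. KIF18A had the largest share at 4 h in both treatments, 60.7% of its H2O2 change and 63.6% of its NCS change. Its 24 h changes were small beside those of most others, -1.36 and -1.52. The largest change at 4 h itself was that of KIF18B after H2O2 (-1.02, against -0.82 for KIF18A). After NCS it was that of KIF14 (-1.16, against -0.96). KIF20A had 12.1% of its change at 4 h after H2O2, the lowest share of the 11, and 27.8% after NCS, and at 8 h its share was 50.3% after H2O2, near the median, and 69.7% after NCS, the highest of the 11. KIF22 also had little of its change at 4 h, 17.1% after H2O2 and 26.6% after NCS. KIF18B and KIF15 were further along at 4 h after H2O2, at 48.8% and 43.2%, than after NCS, at 28.8% and 29.9%. KIF2C, KIF14 and KIF23 had the opposite order, with 23.2%, 32.1% and 23.8% after H2O2 against 46.2%, 56.9% and 43.5% after NCS. These percentages are descriptions, and the values at 4, 8 and 24 h share the untreated libraries.

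**Figure D3:**
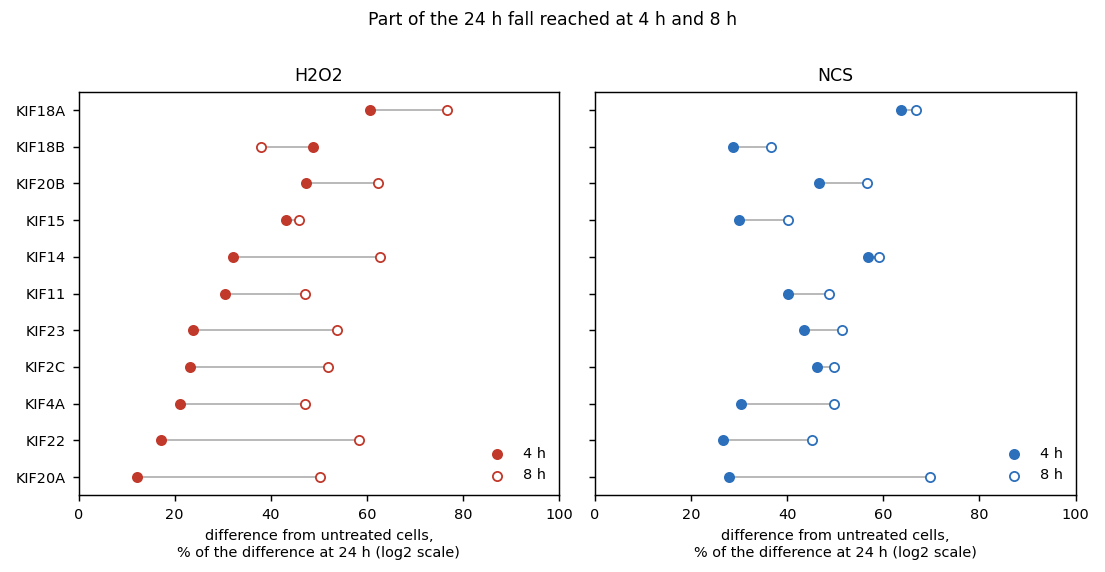
For the 11 mitotic kinesins other than KIF4B, the horizontal axis gives the difference from untreated cells at 4 h (filled) and 8 h (open) as a percentage of the difference at 24 h (log2 scale), for H2O2 on the left and NCS on the right. KIF18A lies furthest right at 4 h in both panels, KIF20A spans from 12.1% to 50.3% after H2O2, and KIF18B after H2O2 has its 8 h point left of its 4 h point.

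Comparing neighbouring times directly, no mitotic kinesin was called between 4 and 8 h after H2O2 (limma), when 0.162% of all genes were called lower. By the adjusted p alone 8 were lower and 1, KIF18B, higher, against 27.7% and 18% of all genes, and by an unadjusted p under 0.05 the numbers were also 8 and 1, against 31.2% and 19.7%. Without replicate 2 of H2O2 at 8 h, KIF20A was called (-1.10). KIF20A differed by -0.94 (SE 0.09, adjusted p = 8.89e-08) with all libraries. Between 4 and 8 h after NCS, KIF20A was called, with -1.202 (SE 0.09, adjusted p = 5.03e-08), where 0.0152% of all genes were called lower. KIF4A (-0.38) and KIF22 (-0.30) were the other mitotic kinesins lower by the adjusted p, in a comparison where 7.5% of all genes were lower. Without replicate 2 of H2O2 at 8 h, a library outside this comparison that enters its spread, 7 passed in place of 3. From 8 to 24 h, 3 mitotic kinesins were called lower after H2O2, against 0.376% of all genes, and 4 after NCS, against 0.361%. They were KIF11, KIF18B and KIF20A after H2O2, and KIF11, KIF15, KIF18B and KIF2C after NCS. Without replicate 2 of H2O2 at 8 h the number after H2O2 was 2, since KIF11 differed by -0.94. By the adjusted p alone all 12 mitotic kinesins were lower in this last step after H2O2, against 23.2%, and 11 after NCS, against 15%. With a limit of 0.58, 9 and 10 were called lower, against 1.89% and 1.51%, and 1 from 4 to 8 h after H2O2, against 1.24%. Transport kinesins passed the adjusted p in both directions, with 2 lower and 4 higher from 4 to 8 h after H2O2 and 2 lower and 6 higher in the later step, where 19.4% of all genes were higher. After NCS they numbered 0 lower and 1 higher, against 6.16% higher, and then 2 lower and 4 higher, against 14.9%. KIF18B had the largest late step in both treatments, -1.29 (SE 0.09, adjusted p = 1.05e-09) and -1.46 (SE 0.09, adjusted p = 3.6e-10).

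H2O2 and NCS were then compared at the same time. No mitotic or transport kinesin was called at 4, 8 or 24 h (limma), where 0.0152%, 0.00508% and 0% of all genes were called lower in H2O2 and 0.559%, 0.157% and 0.0152% higher. By the adjusted p alone, 7 mitotic kinesins were higher and 1 lower in H2O2 at 4 h, against 26.3% and 18% of all genes. At 8 h 2 were higher, against 18.7%, and at 24 h 6 were higher, against 11%. Without replicate 2 of H2O2 at 8 h, 1 was higher and 2 were lower at 8 h, and without NCS 8 h replicate 1 or 2 the number higher was 1. At an unadjusted p under 0.05 there were 7, 3 and 8 higher, against 29.5%, 22.5% and 15.9% of all genes, and 1, 0 and 0 lower, against 20.3%, 18.7% and 15%. With a limit of 0.58, the mitotic kinesins called higher in H2O2 numbered 2 (4 h) and 1 (8 h), against 2.14% and 0.711% of all genes. Of the transport kinesins, 7, 5 and 3 were lower in H2O2 by the adjusted p alone, where 18%, 15.4% and 10.9% of all genes were, and 3, 2 and 1 were higher. At 24 h, 1 in place of 3 was lower without H2O2 24 h replicate 3 or NCS 24 h replicate 2, and none was higher without the former. The median mitotic differences at 4, 8 and 24 h were 0.22, 0.07 and 0.24. At 8 h the median turned to -0.05 without replicate 2 of H2O2 at 8 h.

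KIF2C differed most at 4 h, by 0.63 (95% interval 0.47 to 0.80, adjusted p = 2.77e-06), and KIF14 by 0.59 (95% interval 0.41 to 0.77, adjusted p = 1.86e-05). The 3 H2O2 libraries of KIF2C lay between 10.66 and 10.78 and the 3 NCS libraries between 10.06 and 10.11, with no overlap, which held in either direction for 50.1% of all genes at 4 h, 40.8% at 8 h and 36.5% at 24 h. KIF20A was higher in H2O2 at all 3 times, by 0.50, 0.76 and 0.40. Its 8 h difference was 0.76 (95% interval 0.57 to 0.94, adjusted p = 2.39e-06) and was 0.60 without replicate 2 of H2O2 at 8 h. KIF18B went the other way at 4 h, by -0.36 (95% interval -0.54 to -0.17, adjusted p = 0.00258). KIF4A was higher in H2O2 at 8 h by 0.15, but not past the adjusted p without replicate 2 of H2O2 at 8 h (0.08), NCS replicate 1 (0.13) or NCS replicate 2 (0.14), after quantile normalization (0.13) or in a fit of only the groups compared. For the mitotic kinesins that did not pass, the intervals at 24 h ran from -0.13 to 0.13 for KIF23 and from 0.06 to 0.47 for KIF20B.

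**Figure D4:**
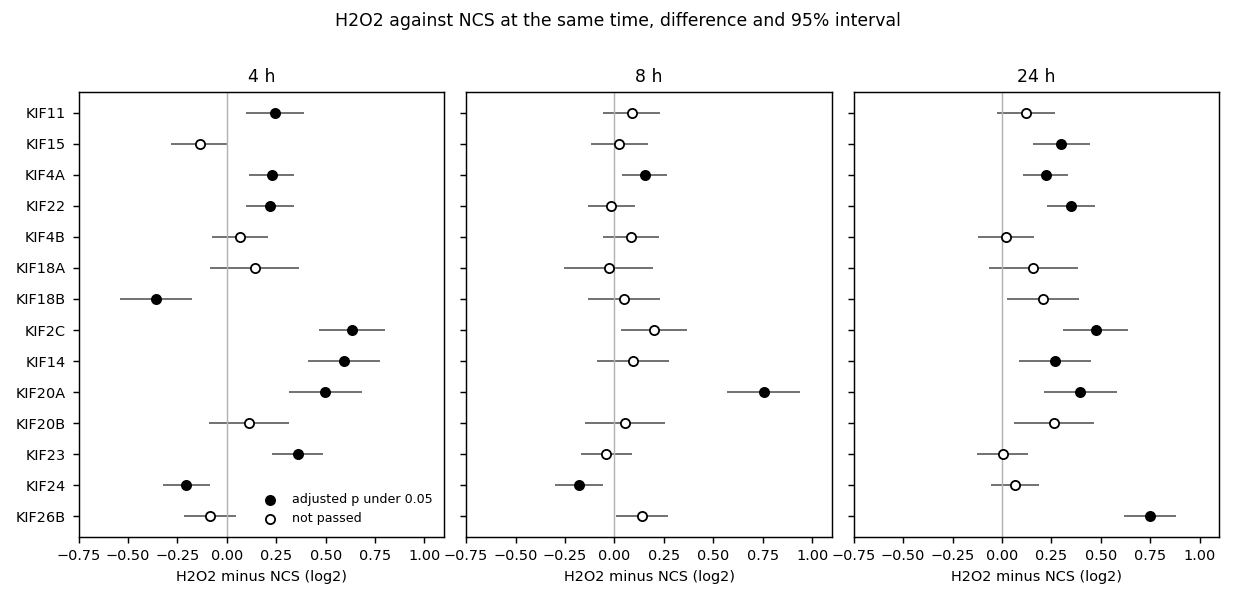
Points give the H2O2 mean minus the NCS mean (log2) for the 12 mitotic kinesins, KIF24 and KIF26B at 4, 8 and 24 h, with 95% intervals from limma, filled where the adjusted p is under 0.05. At 4 h KIF2C (0.63) and KIF14 (0.59) lie right of 0 and KIF18B (-0.36) left, at 8 h KIF20A reaches 0.76, and at 24 h KIF26B is at 0.75.

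Of the 9 other kinesins, KIF24 and KIF26B were called. KIF24 sits on centrioles, where it holds back cilium formation. It measured 8.38, 8.43 and 8.499 in untreated cells. H2O2-treated cells had 8.11, 7.96 and 8.02 (4 h), 7.79, 8.07 and 7.97 (8 h) and 7.31, 7.24 and 7.33 (24 h). NCS-treated cells had 8.25, 8.23 and 8.23 (4 h), 8.17, 8.08 and 8.12 (8 h) and 7.16, 7.28 and 7.25 (24 h). KIF24 was called lower at 24 h in both treatments, at -1.14 (SE 0.06, adjusted p = 7.23e-12) and -1.21 (SE 0.06, adjusted p = 3.38e-12), and its values at 24 h did not overlap those at 4 or 8 h. KIF26B, an atypical kinesin of the Wnt5a and ROR receptor pathway, went up. Its values were 5.79, 5.67 and 5.85 in untreated cells. After H2O2 they were 5.80, 5.83 and 5.92 (4 h), 6.40, 6.46 and 6.41 (8 h) and 7.20, 7.43 and 7.47 (24 h). After NCS they reached 5.92, 5.91 and 5.98 (4 h), 6.29, 6.34 and 6.23 (8 h) and 6.58, 6.66 and 6.60 (24 h). KIF26B was called higher at 24 h after H2O2, with 1.59 (SE 0.06, adjusted p = 2.49e-13), where 0.325% of all genes were called higher, and its change after NCS was 0.84 (SE 0.06, adjusted p = 2.39e-09). The 24 h groups differed by 0.75 (95% interval 0.62 to 0.88, adjusted p = 7.27e-08).

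KIF2A, which depolymerises microtubules at spindle poles and in neurons, was lower in each treated group, with differences of -0.36, -0.10 and -0.28 after H2O2 and -0.27, -0.25 and -0.30 after NCS. The 8 h value after H2O2 did not pass without untreated replicate 1 (-0.06) or H2O2 8 h replicate 3 (-0.08), after quantile normalization (-0.08) or in a fit of only the groups compared. KIF7, which sits at the tip of the primary cilium and tunes Hedgehog signalling, was lower at 4 h after H2O2, with a difference of -0.35 (SE 0.04, adjusted p = 3.4e-06), and differed by 0.10 after NCS. KIF9, a kinesin of motile cilia, was higher at 4 h after H2O2 by 0.26 (SE 0.05, adjusted p = 0.000604). KIF27, a paralog of KIF7, was higher at 24 h after H2O2 by 0.39 (SE 0.08, adjusted p = 0.00045). KIF6, KIF12 and KIF25 had mean values between -2.31 and -1.90 and ranges of at most 0.02, at the floor of the table.

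Transport kinesins carry vesicles and organelles, and they moved in small and mixed ways. Of the 15, 11 had a mean value of at least 5. The largest differences from untreated cells among these were those of KIF3C, KIF3A, KIF16B and KIF5B. KIF5B is the kinesin-1 heavy chain found in most cells, carrying vesicles and mitochondria. It measured 13.31, 13.31 and 13.25 in untreated libraries. After H2O2 they gave 13.05, 13.03 and 13.02 (4 h), 13.09, 13.07 and 12.97 (8 h) and 12.98, 12.95 and 12.98 (24 h). After NCS they gave 13.06, 13.08 and 13.07 (4 h), 13.03, 13.03 and 12.98 (8 h) and 13.002, 12.99 and 12.94 (24 h). Every treated library of KIF5B lay below the untreated ones, with differences from -0.22 at 4 h after NCS to -0.32 (SE 0.03, adjusted p = 1.14e-08) at 24 h after H2O2. The neuronal heavy chain KIF5A was low, with a mean value of 4.63, and was higher at 4 h after H2O2 by 0.49 (SE 0.05, adjusted p = 1.04e-07). KIF5C, also neuronal, had a mean value of 1.67 and a range of 0.16.

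In the kinesin-2 family, KIF3A pairs with KIF3B and the adaptor KIFAP3 to carry cargo into cilia, and KIF3C is an alternative partner. KIF3A measured 9.33, 9.32 and 9.26 in untreated cells. H2O2 libraries of KIF3A held 9.04, 8.94 and 8.84 (4 h), 9.27, 9.20 and 9.03 (8 h) and 9.44, 9.34 and 9.31 (24 h). NCS libraries of KIF3A held 9.28, 9.17 and 9.32 (4 h), 9.46, 9.39 and 9.31 (8 h) and 9.51, 9.49 and 9.41 (24 h). KIF3A was lower at 4 h after H2O2, with a difference of -0.36 (SE 0.06, adjusted p = 6.62e-05) and overlapped the untreated libraries at 24 h. At that time after NCS it was higher by 0.16, which did not pass the adjusted p when any 1 of untreated replicate 1, 2 or 3 or NCS replicate 1 or 2 was left out (0.14 to 0.18). KIF3B also fell at 4 h after H2O2, with a difference of -0.21 (SE 0.02, adjusted p = 6.48e-07), and was higher at 8 h (0.11) and 24 h (0.19). KIF3C measured 9.98, 9.83 and 9.91 in untreated cells. Those treated with H2O2 had 9.90, 9.75 and 9.87 (4 h), 9.98, 9.88 and 9.94 (8 h) and 10.27, 10.31 and 10.26 (24 h). Those treated with NCS had 9.74, 9.65 and 9.71 (4 h), 9.77, 9.83 and 9.76 (8 h) and 10.25, 10.24 and 10.28 (24 h). KIF3C was higher at 24 h by 0.37 (SE 0.04, adjusted p = 3.8e-07) after H2O2 and 0.35 (SE 0.04, adjusted p = 1.08e-06) after NCS, and lower at 4 h after NCS, with a difference of -0.21 (SE 0.04, adjusted p = 0.00113). KIF17, a motor of sensory cilia and dendrites, differed from untreated cells by between -0.17 and 0.15.

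The kinesin-3 family carries endosomes, mitochondria and vesicle precursors. KIF16B, which moves early endosomes, measured 6.99, 6.88 and 7.05 in untreated cells. Treated with H2O2, cells had 6.60, 6.59 and 6.64 (4 h), 6.81, 6.68 and 6.67 (8 h) and 6.995, 6.92 and 6.98 (24 h). Treated with NCS, they had 6.93, 6.83 and 6.87 (4 h), 7.14, 6.95 and 6.98 (8 h) and 7.07, 7.13 and 6.96 (24 h). KIF16B was lower, with differences of -0.36 (SE 0.06, adjusted p = 6.11e-05) at 4 h and -0.25 (SE 0.06, adjusted p = 0.00206) at 8 h after H2O2, with no overlap, and at 24 h it overlapped the untreated libraries. KIF13A, a carrier of recycling endosomes, was lower at 4 h, with differences of -0.29 (SE 0.02, adjusted p = 1.91e-08) after H2O2 and -0.15 (SE 0.02, adjusted p = 0.000241) after NCS. KIF13B and KIF1C were lower at 4 h after H2O2 too, with differences of -0.20 and -0.17, and KIF13B was higher at 24 h, by 0.28. KIF1B, which carries mitochondria and synaptic vesicle precursors, was higher at 4 and 8 h after H2O2, by 0.16 and 0.28, and differed by -0.01 at 24 h. KIF21A, a kinesin-4 that restrains microtubule growth, was higher at 8 h by 0.26 after H2O2 and 0.29 after NCS. KIF1A and KIF21B, both largely neuronal, had mean values of -1.09 and -1.63 and ranges of at most 0.06.

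**Figure D5:**
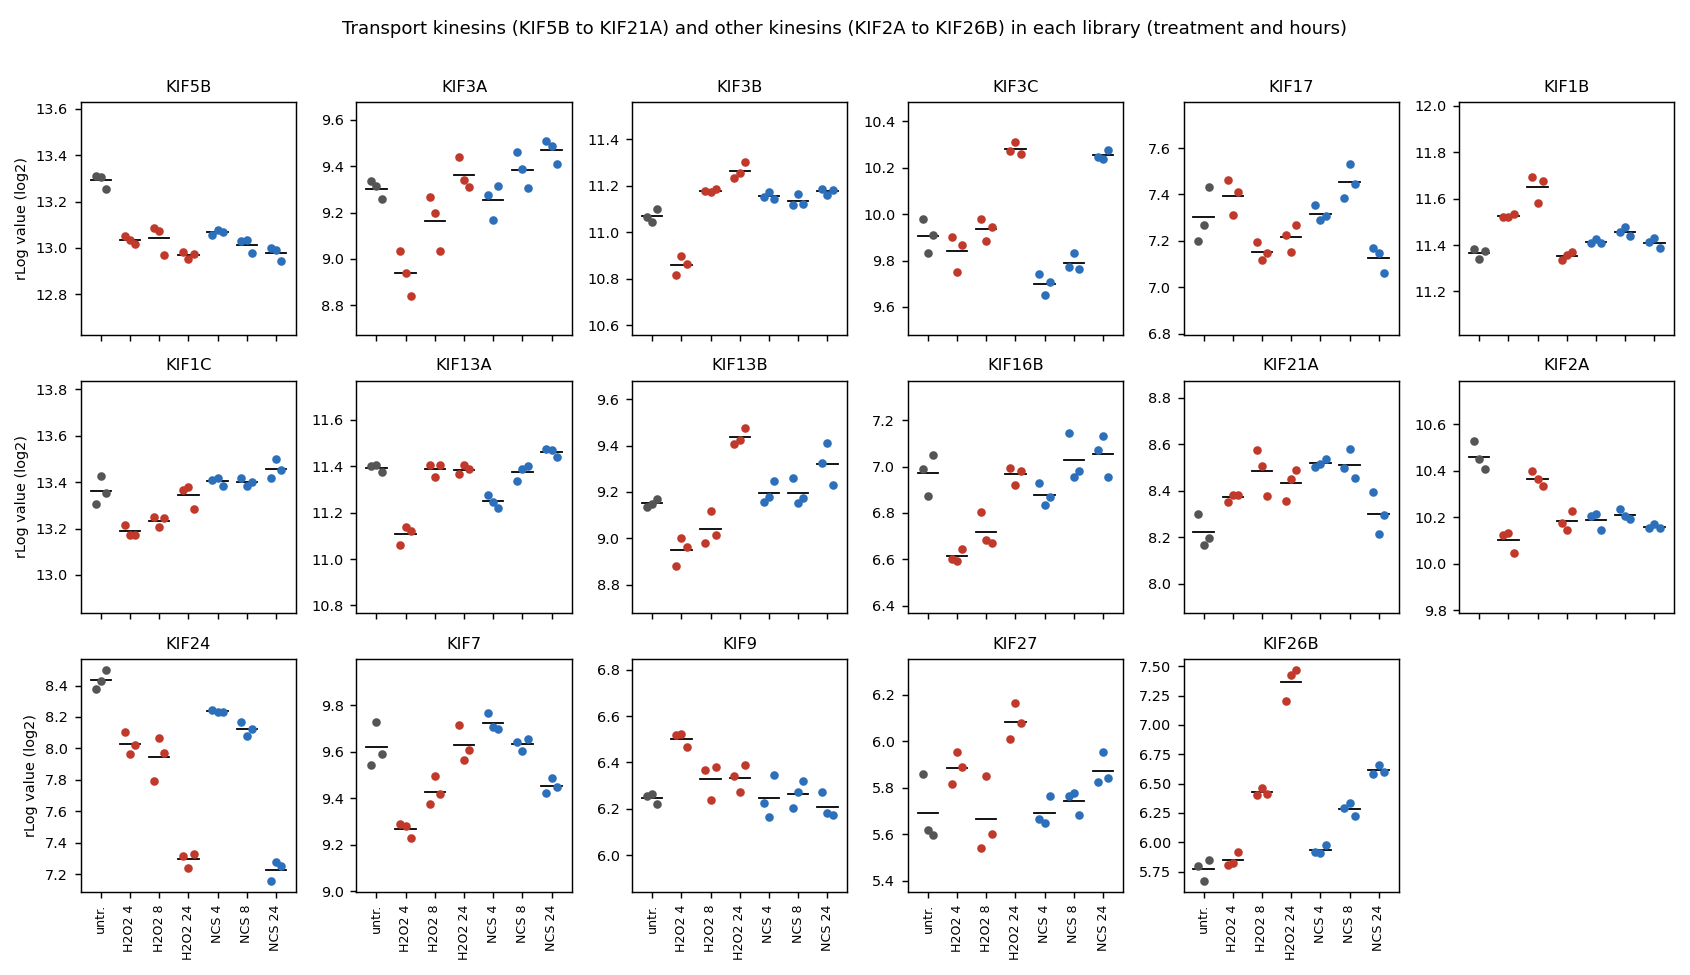
The 11 transport kinesins and 6 other kinesins with a mean value of at least 5 are plotted in each of the 21 libraries (rLog value, log2), with bars at group means and the colours grey, red and blue for untreated, H2O2 and NCS. KIF5B is lower in every treated library, KIF3C is higher at 24 h in both treatments, KIF3A, KIF16B and KIF13A dip at 4 h after H2O2, and KIF24 falls and KIF26B rises past 1 at 24 h after H2O2.

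Across the 21 libraries, which share their treatments, the mitotic kinesins varied together. The 55 pairs among the 11 with a mean value of at least 5 had a median Pearson correlation of 0.96, from 0.85 to 0.99. The 55 pairs of the 11 transport kinesins had a median of -0.02, and 28 were below 0. Against the median profile of the mitotic kinesins, KIF24 had a correlation of 0.94, KIF5B 0.79 and KIF2A 0.52, while KIF26B had -0.82 and KIF3C -0.75. Outside the family, the 10 genes with a profile most like it were CCNA2 (0.996), SMC4 (0.993), GTSE1 (0.992), IQGAP3 (0.992), CENPJ (0.992), MKI67 (0.991), CIT (0.991), TACC3 (0.990), TMEM48 (0.989) and LMNB1 (0.989). CCNA2 encodes cyclin A2, and its values at 24 h were -2.14 from untreated cells after H2O2 and -2.46 after NCS. MKI67, the Ki-67 proliferation marker, was at -2.51 and -2.73.

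Genes that work with the kinesins were read from lists compiled by hand. Of 18 spindle and midzone partners, 1, 6 and 16 were called lower at 4, 8 and 24 h after H2O2, against 0.0406%, 0.198% and 1.29% of all genes, and 3, 7 and 16 after NCS, against 0.127%, 0.274% and 1.37%, with medians of -0.35, -0.83 and -1.70 and of -0.65, -0.93 and -1.91. The 6 at 8 h after H2O2 became 3 without replicate 1 or replicate 3 of that group, when CDCA8 (-0.90 or -0.96), ANLN (-0.95) and CIT (-0.93 or -0.97) were no longer called. In that comparison CDCA8 (-0.9915) and CIT (-0.9955) were also not called after quantile normalization. Without untreated replicate 1, ANLN (-0.999) was not called. CIT (-0.9932) was not called without untreated replicate 2, nor were CDCA8 (-0.9879) and ANLN (-0.9996) without untreated replicate 3. CDCA8 (borealin), a subunit of the passenger complex that KIF20A carries, was at -2.55 (SE 0.09, adjusted p = 3.82e-14) at 24 h after NCS, and ASPM, a spindle pole protein, at -2.44 (SE 0.09, adjusted p = 2.28e-13). Among kinesins whose symbols have no digit after KIF, KIFC1, a minus-end motor that focuses spindle poles, was at -2.22 (SE 0.07, adjusted p = 2.12e-14) at 24 h after NCS. CENPE, the kinetochore motor, was at -1.86 (SE 0.10, adjusted p = 1.91e-11), and KIFC2, a motor best known from neurons, was higher by 0.41 (SE 0.06, adjusted p = 2.01e-05) at 24 h after H2O2.

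The partners of transport showed no such fall in their medians. Of 16 kinesin adaptors, none was called in any of the 6 treated groups (limma), and their medians lay between -0.03 and 0.09. Between 0.0406% and 1.37% of all genes were called lower in these groups, and between 0.066% and 0.655% higher. At such shares, lists of this size may well hold none. By the adjusted p alone, 5, 6 and 4 adaptors were lower after H2O2, against 19.7%, 18.6% and 19.9% of all genes. Adaptors higher numbered 5, 5 and 8, against 26.2%, 18.8% and 20.2%. With NCS 1, 2 and 2 were lower, against 9.72%, 13.3% and 18.4%, and 1, 2 and 6 higher, against 7.47%, 10.5% and 19.6%. At an unadjusted p under 0.05, 6, 7 and 4 were lower after H2O2, where 21.8%, 21.4% and 21.9% of all genes were, and 5, 5 and 8 higher, where 29.6%, 22.3% and 22.9% were. After NCS 4, 3 and 2 adaptors were lower, against 14.5%, 17.2% and 20.8%, and 3, 5 and 7 higher, against 12.1%, 15% and 22.9%. FEZ1, an adaptor of kinesin-1, was higher by 0.55 (SE 0.06, adjusted p = 3.29e-07) at 24 h after H2O2. KIFAP3, the adaptor of the KIF3A and KIF3B pair, was higher by 0.36 (SE 0.04, adjusted p = 1.01e-07) at 24 h after NCS. FEZ2 was at -0.24 and the light chain KLC3 at -0.22 at 8 h after H2O2. Of 26 genes of dynein and dynactin, the motor that moves the other way along microtubules, none was called (limma), with medians from -0.02 to 0.07. By the adjusted p alone, 8, 9 and 9 were lower and 5, 4 and 7 higher after H2O2. With NCS 2, 5 and 3 were lower and 1, 4 and 13 higher. At an unadjusted p under 0.05, 8, 11 and 10 were lower and 5, 4 and 8 higher after H2O2. With NCS 3, 5 and 4 were lower and 3, 7 and 14 higher. The shares of all genes are those given for the adaptors under each rule. NDE1, a dynein regulator that also acts at mitosis, was at -0.59 (SE 0.03, adjusted p = 2.48e-11) at 24 h after H2O2, and HOOK3, a cargo adaptor, at -0.29 at 4 h after H2O2. The adaptor HOOK2 was higher by 0.40 and the light chain DYNLT3 by 0.34 at 24 h after NCS.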

How the data were processed

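RNA from 21 hTERT-HPNE libraries was prepared with a TruSeq stranded mRNA kit. In Galaxy, the authors used HISAT2 for alignment and htseq-count for counting, and deposited log2 values made with DESeq2's rLog, which shrinks differences. The submitters' processing notes name hg19. The annotation and the strand setting of the counting are not given in the sources used here, so reads of a gene and an overlapping antisense gene cannot be told apart.

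Of 23368 genes, 19694 varied and were fitted with limma 3.58.1 (R 4.3.3) with a mean-variance trend, 7 group means and no covariate, in 13 comparisons: 6 with untreated cells, 3 of H2O2 with NCS and 4 between neighbouring times. Tables and figures were made with matplotlib 3.10.9, pandas 2.3.3, scipy 1.17.1 and numpy 2.4.6 under Python 3.11.15. The kinesins, their lists, the partner lists and the motifs were chosen with earlier results of these data known.

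Values in every library are given for kinesins called against untreated cells. They are also given for the 4 transport and 2 other kinesins with the largest differences among those with a mean value of at least 5. From each partner list, fits are given for the 2 largest rises and falls. The alternatives were a log2 limit of 0.58, the adjusted p alone, only genes with mean values from 5 up, aligned library medians, quantile normalization, fits of the groups compared, the replicate number as a block, other sortings of the kinesins, and each library left out in turn.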

Additional observations from a re-analysis of the deposited data

Results flagged for a closer look

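KIF2C and KIF14 differed between H2O2 and NCS at 4 h, by 0.63 and 0.59 on the log2 scale with H2O2 the higher (limma, adjusted p = 2.77e-06 and 1.86e-05). KIF20A differed at 8 h by 0.76 (adjusted p = 2.39e-06), or by 0.60 without replicate 2 of H2O2 at 8 h. KIF26B differed at 24 h by 0.75 (adjusted p = 7.27e-08), being higher than in untreated cells in both treatments. KIF3B differed at 4 h by -0.30 (adjusted p = 8.03e-09). It was lower than in untreated cells after H2O2 (-0.21) and higher after NCS (0.09), and the second of these did not pass without untreated replicate 2 (0.07) or NCS replicate 2 (0.08), or with library medians aligned (0.07). In each of these 5 comparisons the 3 H2O2 and 3 NCS libraries did not overlap, which held for 50.1%, 40.8% and 36.5% of all genes at 4, 8 and 24 h.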

How the results depend on the processing

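None of the 247 single-kinesin results past the adjusted p changed direction under any alternative run. Of the 18 list medians, 5 changed sign under at least 1. The transport median at 8 h after H2O2 (0.0023) was -0.1131 with a mean value of at least 5, -0.0082 after quantile normalization and -0.0063 to -0.0011 without untreated replicate 2 or H2O2 8 h replicate 1 or 3. At 24 h after H2O2 (-0.0016) it was 0.0364 after quantile normalization and 0.0120 and 0.0013 without untreated replicate 3 or H2O2 replicate 1, and at 4 h after NCS (0.0079) it was -0.0049 with library medians aligned and -0.0006 without untreated replicate 2. For H2O2 against NCS at 8 h, the mitotic median (0.0681) was -0.0454 without H2O2 replicate 2, and the transport median (-0.0251) was 0.0027 and 0.0019 without NCS replicate 2 or 3. A log2 limit of 0.58 raised the mitotic kinesins called lower to 5 and 11 at 4 and 8 h after H2O2 and 10 and 11 after NCS, and to 1 (4 to 8 h, H2O2), 9 (8 to 24 h, H2O2) and 10 (8 to 24 h, NCS). It called 2 mitotic kinesins higher in H2O2 than NCS at 4 h and 1 at 8 h. With the adjusted p alone, 11 mitotic kinesins were lower at 4 and 8 h after either treatment, 8 lower and 1 higher from 4 to 8 h and 12 lower from 8 to 24 h after H2O2, and 3 and 11 lower after NCS. By the same rule, 7, 2 and 6 were higher and 1, 0 and 0 lower in H2O2 than NCS at 4, 8 and 24 h. Transport kinesins lower numbered 7, 4 and 1 after H2O2 and 3, 2 and 2 after NCS, and those higher 3, 3 and 4, and 2, 2 and 8. Between H2O2 and NCS they were 7, 5 and 3 lower and 3, 2 and 1 higher, and between times 2 lower and 4 higher, then 2 and 6 after H2O2, and 0 and 1, then 2 and 4 after NCS. With each library left out, the transport kinesins past the adjusted p ranged from 3 to 5 lower at 8 h after H2O2. At 24 h after NCS, 4 to 9 were higher. In H2O2 against NCS at 24 h, 1 to 4 were lower and 0 to 2 higher. From 8 to 24 h after H2O2, 1 to 2 were lower. The mitotic kinesins higher in H2O2 than NCS ranged from 1 to 3 at 8 h and from 5 to 8 at 24 h.

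Quantile normalization left 0 mitotic kinesins called at 4 h after H2O2, and gave medians of -1.93 (mitotic, NCS 24 h), -0.12 (transport, H2O2 4 h), 0.0364 (transport, H2O2 24 h) and -0.10 (transport, H2O2 against NCS at 4 h). With a mean value of at least 5 the transport medians were -0.20 and -0.11 at 4 and 8 h after H2O2 and -0.15 for H2O2 against NCS at 4 h. With library medians aligned, the transport median for H2O2 against NCS at 24 h was -0.0364. With the other kinesins except KIF2A counted as transport, 1 was lower at 24 h after either treatment and 1 higher after H2O2, and the medians were -0.0003 (H2O2 4 h) and 0.0442 (NCS 24 h). The cause of these shifts was not tested.

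Leaving out 1 library at a time, the mitotic kinesins called lower ranged from 0 to 1 at 4 h after H2O2, from 2 to 7 at 8 h and from 0 to 1 between those times. The mitotic medians ranged from -2.03 to -1.95 at 24 h after NCS and from 0.19 to 0.27 for H2O2 against NCS at 24 h. The transport medians ranged from -0.106 to -0.0238 (H2O2 4 h), 0.0522 to 0.0834 (NCS 24 h) and -0.0254 to -0.0030 (H2O2 against NCS at 24 h). At least 1 left-out library cost 35 of the 247 single-kinesin results the adjusted p.

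The sample titles number the replicates but do not say whether same-numbered replicates were handled together. Over 63 same-numbered pairs of libraries, deviations from group means had a mean correlation of 0.0274, from -0.149 to 0.213, and 12 pairs were over 0.1. Pairs with different numbers had a mean of -0.0137. A shared day or batch cannot be told from these values. The replicate block changed no count of calls by over 1.5 times and cost 3 of the 247 results the adjusted p (KIF17, H2O2 8 h, -0.15, KIF4B, 8 to 24 h after H2O2, -0.17, KIF13B, 8 to 24 h after NCS, 0.12). Aligned medians cost 5, quantile normalization 15 and fits of only the groups compared 23. Without counts, depth cannot be given as a limit on any value, and low kinesins such as KIF4B and KIF5A are shrunken most.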
